A study of Mus musculus with 12 samples.

Results

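The genes described here encode the proteoglycans and link proteins of the brain's extracellular matrix and of perineuronal nets, in the mouse ventral hippocampus with and without Angelman syndrome (AS). The rule names 8 genes: Acan, Bcan, Ncan, Vcan, Tnr, Hapln1, Hapln4 and Ptprz1. Of these, 7 were measured, each as 1 row of a table of 13951 genes, and all 7 passed a filter on low values that kept 13858 genes. Acan, which encodes aggrecan, was not analysed here.

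A perineuronal net is a mesh around the cell body and proximal dendrites of certain neurons, above all of parvalbumin interneurons, and in the hippocampus also around CA2 pyramidal cells. Its backbone is hyaluronan, a sugar chain made at the cell surface. Chondroitin sulfate proteoglycans of the lectican family (aggrecan, brevican, neurocan and versican) bind hyaluronan at one end and tenascin-R at the other, and link proteins clamp the lecticans onto hyaluronan. The same proteins also form a looser matrix between cells, much of it secreted by astrocytes and oligodendrocyte precursors.

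RNA came from right-side ventral hippocampus of C57BL/6J mice aged 12 to 16 weeks, with 1 polyadenylated library per mouse. The 4 groups were females and males that were wild-type (WT) or AS, with 3 mice to a group. AS in humans follows loss of the maternal copy of UBE3A, a ubiquitin ligase gene. The labels call the WT mice controls and the AS mice by the disease name only. They do not give the mutation, whether the groups were littermates, or any treatment. All values below are log2(abundance + 1) from a normalized table, where abundance is an RSEM estimate per transcript length, and the sequencing depth behind them is unknown.

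In WT female replicate 1, Xist was at 0.35, against 6.00 to 6.44 in the other 5 female libraries and 0.17 to 0.52 in males, while its Y-linked transcripts stayed at 0.17 to 1.02. Choroid plexus, the tissue that secretes cerebrospinal fluid, was present unequally. The mean of 15 of its markers lay between 1.28 and 1.85 in 8 libraries. It reached 5.44 and 4.48 in replicates 2 and 1 of the WT females, 5.22 in replicate 2 of the AS females and 3.21 in replicate 2 of the AS males. A fit without these 4 libraries keeps 1 WT female, 2 AS females, 3 WT males and 2 AS males, and assumes that the lone WT female varies like the other groups. Markers of the labelled tissue were present in every group, with group means of 6.63 to 6.79 over 6 excitatory neuron genes and 6.67 to 6.76 over 10 astrocyte genes. Ube3a averaged 4.24 in WT and 4.12 in AS females, and 4.07 in WT and 4.03 in AS males. Its difference over both sexes was -0.085 ± 0.093 (SE, limma, adjusted p = 0.976), so transcript levels of this gene do not bear out the labels of genotype. The mutation is not given, and whether it would lower this transcript is unknown.

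Brevican was the most abundant of the transcripts measured and versican the least. Over all 12 libraries, per length, Bcan averaged 5.86 ± 0.15 (SD, n = 12) and Ptprz1 5.34 ± 0.08. Ncan followed at 4.95 ± 0.11, Hapln4 at 4.80 ± 0.20, Tnr at 4.45 ± 0.17, Hapln1 at 3.18 ± 0.20 and Vcan at 2.19 ± 0.20. These levels place Bcan above 87.7% of the tested genes and Vcan above 18.9%. Bcan lay above Ptprz1, Ptprz1 above Ncan, Tnr above Hapln1 and Hapln1 above Vcan in 12 of 12 libraries, with no overlap of ranges. The neighbours Ncan and Hapln4 were not separated in this way: their ranges overlapped, and Ncan was the higher in 9 libraries, by 0.14 ± 0.16 (SD) on average. The ranges of Hapln4 and Tnr also overlapped, with Hapln4 the higher in 10 libraries.

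**Figure D1:**
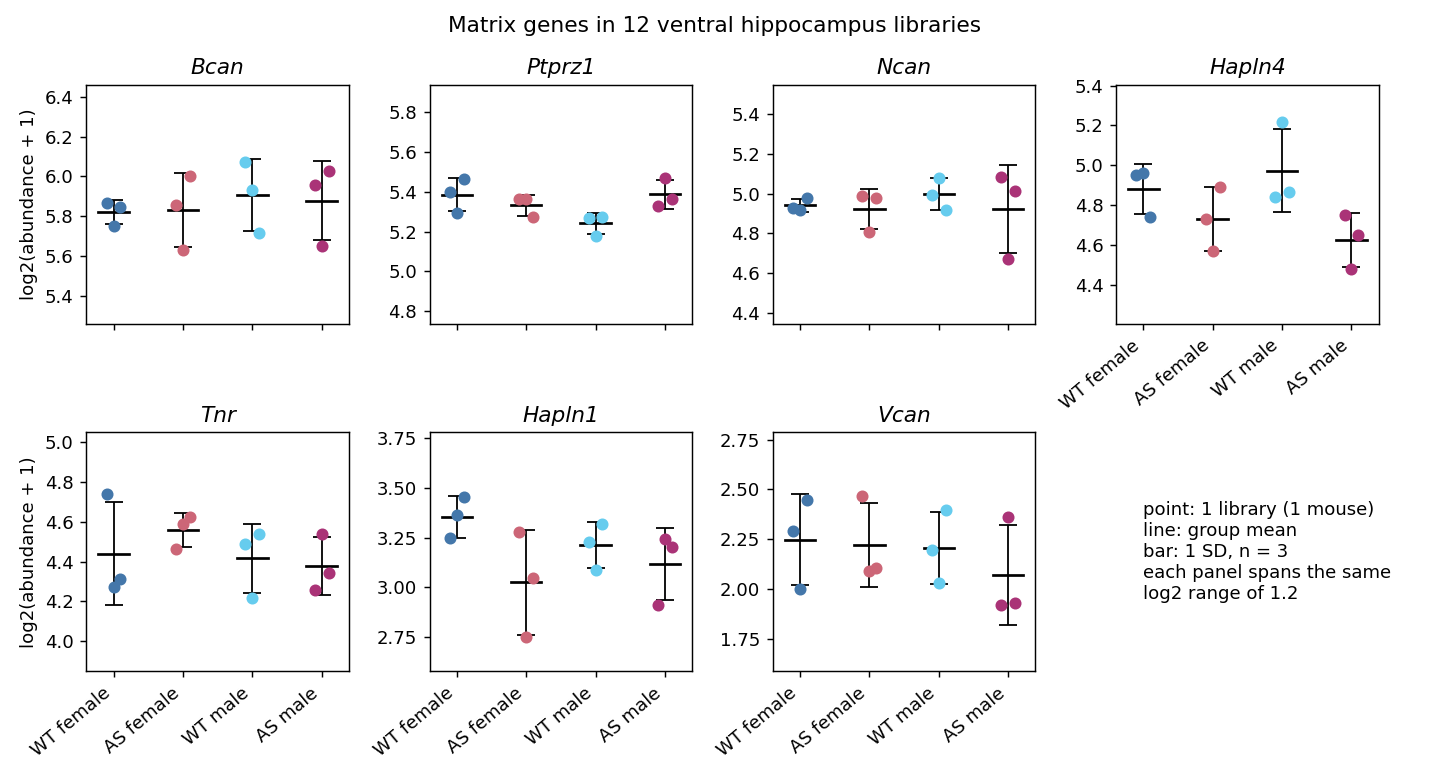
Level of each gene, log2(abundance + 1), in the 12 libraries by group, from the most to the least abundant gene; points are libraries, lines group means and bars 1 SD (n = 3). Hapln4 in AS males lies below all WT males and Ptprz1 in AS males above all WT males, while the groups of Bcan, Ncan and Vcan overlap. Of all genes tested, 11.2% separate the male genotype groups in this way.

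None of the 7 genes passed for AS against WT in females, in males or over both sexes (limma, with p adjusted by Benjamini and Hochberg across the 13858 genes and a threshold of 0.05). The share of all genes called was 0.0% in each of these comparisons. At an unadjusted p under 0.05, 1 of the 7 genes stood out in females, where 3.16% of all genes did, 2 in males, where 6.42% did, and 2 over both sexes, where 5.35% did. For the interaction of genotype and sex 0 of the 7 did, against 3.77% of all genes. None of the 7 had AS values wholly apart from WT values in females, where 9.01% of all genes had, or over both sexes, where 0.361% had. In males Hapln4 and Ptprz1 had, where 11.2% of all genes had. The 7 differences over both sexes had a median of -0.045, with 5 below 0, against a median of 0.0053 and 47.3% below 0 over all genes tested. Over both sexes the values farthest from 0 were those of the link proteins Hapln4 and Hapln1, at -0.25 and -0.21, followed by Vcan at -0.081. In the fit without the 4 choroid-rich libraries Vcan was at -0.22, as was Hapln1, and Hapln4 at -0.10.

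Lectican transcripts overlapped between genotypes in both sexes. Bcan encodes brevican, the shortest lectican, made by astrocytes, oligodendrocyte precursors and neurons. It was at 5.86, 5.75 and 5.85 in WT females and at 5.86, 5.63 and 6.00 in AS females. In males it was at 6.07, 5.93 and 5.72 in WT and at 5.96, 5.65 and 6.03 in AS. AS females reached past the WT females on both sides, and AS males overlapped the WT males and reached past them on the lower side. The difference over both sexes was -0.0095 ± 0.086 (SE, 6 mice per genotype), with a 95% interval of -0.20 to 0.18.

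Ncan encodes neurocan, a lectican secreted mainly by neurons and astrocytes. Its values were 4.93, 4.92 and 4.98 in WT females and 4.99, 4.80 and 4.98 in AS females. WT males had 4.99, 5.08 and 4.92, and AS males 5.08, 4.67 and 5.01. AS female replicate 2 and AS male replicate 2 were the lowest libraries for Ncan, and the same 2 were the lowest for Bcan. Its difference over both sexes was -0.045 ± 0.070, with an interval of -0.20 to 0.11.

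Vcan encodes versican, the largest lectican, whose brain form marks oligodendrocyte precursors and nodes of Ranvier. It was at 2.29, 2.00 and 2.45 in WT females and at 2.47, 2.09 and 2.11 in AS females. Among males it was at 2.19, 2.03 and 2.39 in WT and at 1.92, 2.36 and 1.93 in AS. The groups overlapped in both sexes. Its difference over both sexes was -0.081 ± 0.12, and the interval of -0.35 to 0.19 was the widest of the 7 genes. Leaving out 1 library moved it from -0.031, without WT female replicate 3, to -0.15, without AS male replicate 2. In percent of abundance + 1, the intervals of the 3 lecticans reach from -12.8% to 13.1% for Bcan, from -12.9% to 7.79% for Ncan and from -21.4% to 13.7% for Vcan.

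The starts of Bcan and Ncan are shown because these 2 genes varied together across libraries, as described further on. Each sequence runs from 250 bases before to 50 bases after the gene's start, 5′ to 3′ on the gene's own strand (RefSeq, GRCm38.p6). Bcan is at chr3:88000307-88000606 and Ncan at chr8:70120795-70121094, both on the minus strand, with RefSeq starts 126 and 29 bases from the GENCODE starts. Capitals mark matches, on either strand, to the GC box (GGGCGG), the CCAAT box (CCAAT) and the TATA box (TATAAA).
Bcan: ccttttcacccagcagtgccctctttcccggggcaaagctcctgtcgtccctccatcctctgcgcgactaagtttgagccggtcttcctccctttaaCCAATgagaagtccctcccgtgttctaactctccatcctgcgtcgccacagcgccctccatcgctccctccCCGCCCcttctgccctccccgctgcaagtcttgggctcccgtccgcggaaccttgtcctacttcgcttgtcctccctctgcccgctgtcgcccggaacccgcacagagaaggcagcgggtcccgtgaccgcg
Ncan: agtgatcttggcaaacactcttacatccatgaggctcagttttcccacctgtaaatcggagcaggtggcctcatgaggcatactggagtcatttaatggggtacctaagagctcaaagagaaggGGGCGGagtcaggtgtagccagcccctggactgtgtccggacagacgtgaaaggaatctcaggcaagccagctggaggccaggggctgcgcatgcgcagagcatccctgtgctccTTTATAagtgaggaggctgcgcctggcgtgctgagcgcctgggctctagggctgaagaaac
The Bcan window holds 1 GC box, 1 CCAAT box and 24 CG pairs. The Ncan window holds 1 GC box, 1 TATA box and 9 CG pairs. Of 27025 promoter windows of this length in the table, 35.9% hold the GC box, 37.9% the CCAAT box and 14.2% the TATA box, and the median number of CG pairs is 7. These matches are descriptions of letters and not evidence of binding.

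Tnr encodes tenascin-R, a trimeric glycoprotein made by oligodendrocytes and some interneurons that ties lecticans together. It was at 4.74, 4.27 and 4.31 in WT females and at 4.46, 4.59 and 4.62 in AS females. In males the values were 4.49, 4.22 and 4.54 in WT and 4.26, 4.54 and 4.34 in AS. Replicate 1 of the WT females, in which Xist was low, was the highest of all 12, and the groups overlapped in both sexes. AS minus WT was 0.12 ± 0.13 among females and -0.038 ± 0.13 among males. With the sexes pooled it was 0.040 ± 0.092 (adjusted p = 0.982). Without WT female replicate 1 it was 0.27 ± 0.11 in females and did not pass (adjusted p = 1.00). It was 0.034 without WT female replicate 2 and 0.053 without WT female replicate 3.

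Link protein transcripts had the smallest p of the set, and neither passed. Hapln1 encodes the link protein found throughout nets, and mice without it in the nervous system form attenuated nets. Its values were 3.25, 3.36 and 3.46 in WT females against 3.28, 2.75 and 3.05 in AS females. All 3 AS females lay below the WT female mean, but AS female replicate 1 lay above the lowest WT female, so the groups overlapped. The difference in females was -0.33 ± 0.14 (SE, 3 mice per group), an interval of -0.63 to -0.033, at an unadjusted p of 0.0323 and adjusted p = 1.00 with limma.

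Hapln1 in males was at 3.23, 3.09 and 3.32 in WT and at 2.91, 3.24 and 3.20 in AS. The male groups overlapped, and their difference was -0.094 ± 0.14 (adjusted p = 0.935). Over both sexes the difference was -0.21 ± 0.096 (adjusted p = 0.914, limma), with 6 of 6 AS libraries below the WT mean of both sexes, 3.28. Against the WT mean of their own sex, 3 of 3 AS females and 2 of 3 AS males lay below. One library carried much of the value in females: without AS female replicate 2, which was high in choroid plexus markers, it was -0.19. In males it was 0.0092 without AS male replicate 1 and -0.040 without WT male replicate 3. In the fit without the 4 choroid-rich libraries Hapln1 stood at -0.16 in males, -0.22 with the sexes pooled and -0.29 in females, where 1 WT library remained.

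Hapln4 encodes Bral2, a link protein that holds brevican in the nets of brainstem and cerebellar nuclei. In females it was at 4.95, 4.96 and 4.74 in WT and at 4.73, 4.57 and 4.89 in AS, and the groups overlapped. In males it was at 4.84, 5.22 and 4.87 in WT and at 4.75, 4.48 and 4.65 in AS. Here all 3 AS males lay below all 3 WT males, a separation found for 11.2% of all genes tested. The difference was -0.35 ± 0.12 in males, with an interval of -0.61 to -0.085, or -34.4% to -5.71% of abundance + 1, at an unadjusted p of 0.0139 and adjusted p = 0.748 with limma.

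The female difference of Hapln4 was -0.15 ± 0.12 (adjusted p = 1.00), and the difference between the sexes in this effect, male minus female, was -0.19 ± 0.17 (adjusted p = 0.987). Over both sexes Hapln4 differed by -0.25 ± 0.085, with 6 of 6 AS libraries below the WT mean of both sexes, 4.93. Against the WT mean of their own sex, 2 of 3 AS females and 3 of 3 AS males lay below. The difference over both sexes gave the smallest unadjusted p of the 7 genes with limma, 0.0126. That p ranks 192 among the 13858 genes tested (adjusted p = 0.893). The value in males was -0.23 without WT male replicate 2, the library highest in Hapln4. Without the 4 libraries highest in choroid plexus markers, Hapln4 differed by -0.27 in males and -0.10 over both sexes. The value in females was then 0.073, from 1 WT library against 2 AS libraries. In females it was -0.072 without AS female replicate 2 and -0.23 without AS female replicate 3.

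**Figure D2:**
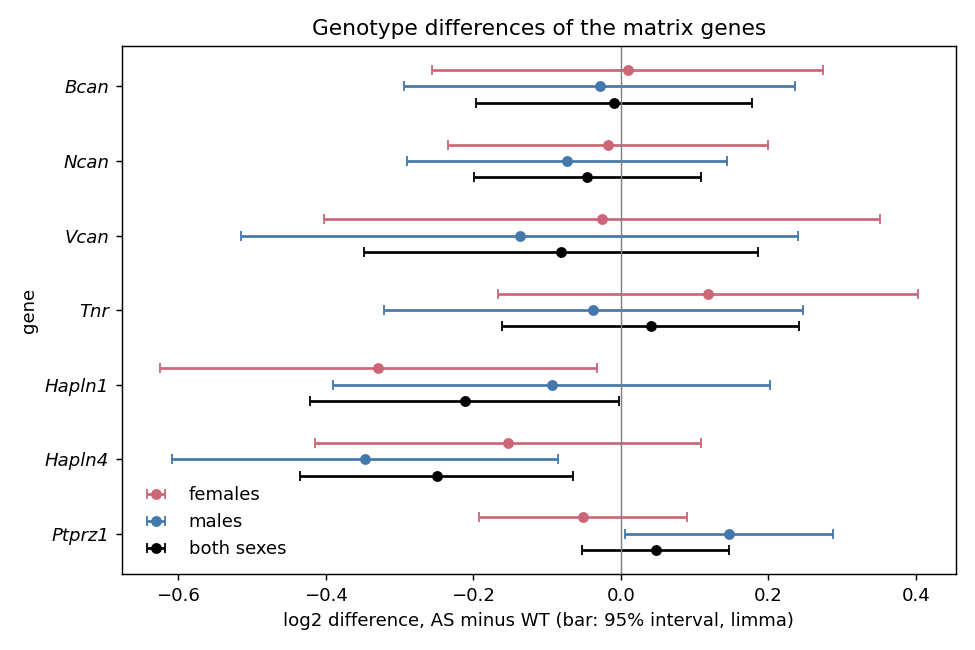
Differences in log2(abundance + 1) between AS and WT mice for each gene in females, males and over both sexes, with 95% intervals from limma. Hapln1 in females (-0.33), Hapln4 in males (-0.35) and both genes over both sexes have intervals below 0, Ptprz1 in males (0.15) has one above 0, and none passed after adjustment over all genes.

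Ptprz1 encodes a receptor tyrosine phosphatase whose secreted form, phosphacan, is itself a chondroitin sulfate proteoglycan of the matrix and binds tenascin-R and the adhesion protein contactin-1. Its values were 5.40, 5.30 and 5.46 in WT females and 5.36, 5.36 and 5.27 in AS females. WT males had 5.27, 5.18 and 5.27, and AS males 5.33, 5.47 and 5.36. All AS males lay above all WT males, a separation seen for 11.2% of genes in that comparison. All WT males lay below all WT females, a separation seen for 14.7% of genes. The genotype difference was -0.051 ± 0.064 in females and 0.15 ± 0.064 in males (unadjusted p = 0.0437, adjusted p = 0.763, limma).

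For Ptprz1 the difference between these effects, male minus female, was 0.20 ± 0.091, at an unadjusted p of 0.0521 and adjusted p = 0.987. WT males against WT females differed by -0.14 ± 0.064 (adjusted p = 0.642). These comparisons share the WT male libraries. The male genotype difference was 0.12 without WT male replicate 2 and 0.10 without AS male replicate 2. No other gene of the set reached an unadjusted p under 0.05 between the sexes, where 7.70% of all genes did in WT and 3.63% in AS mice. In WT mice 4 genes in all were called between the sexes (0.0289%), and in AS mice 5 were called (0.0361%), none of them among the 7. Male and female AS mice did not separate for any of the 7, where 8.47% of all genes did.

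Link protein and lectican genes lie side by side in the genome, and the data hold 3 such pairs. Positions are on GRCm38 from GENCODE M21. Hapln4 (ENSMUSG00000007594, chromosome 8, 70083457 to 70090862, plus strand) and Ncan (ENSMUSG00000002341, 70093085 to 70120873, minus strand) point at each other with 2222 bases between their ends. Hapln1 (ENSMUSG00000021613, chromosome 13, 89539796 to 89611652, plus strand) and Vcan (ENSMUSG00000021614, 89655312 to 89742509, minus strand) point at each other across 43659 bases. Bcan (ENSMUSG00000004892, chromosome 3, 87987531 to 88000230, minus strand) lies 21519 bases downstream of Hapln2, a link protein gene of myelinated axons, on the same strand. There are 0 other protein-coding genes between the partners of each pair.

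Across the 12 libraries, Hapln1 and Vcan had a Pearson r of 0.56 and a Spearman rho of 0.60. For Hapln4 and Ncan the values were 0.60 and 0.22, and for Bcan and Hapln2 they were 0.30 and 0.26. The r of Hapln4 and Ncan was 0.039 without the 2 libraries farthest from the Ncan median, and 0.37 without AS male replicate 2, so it rests on few libraries. For Hapln1 and Vcan it was 0.41 without the 2 libraries farthest from the Vcan median. These are descriptions over libraries that share their processing and differ in tissue makeup. Tnr (ENSMUSG00000015829, chromosome 1, 159523769 to 159931729, plus strand) and Ptprz1 (ENSMUSG00000068748, chromosome 6, 22875502 to 23052916, plus strand) have no such partner.

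The starts of Hapln1 and Vcan, the pair with the higher rho, are shown with the same motifs in capitals. The Hapln1 window follows the RefSeq start, which lies 840 bases inside the GENCODE gene given above. It is at chr13:89540386-89540685 on the plus strand, and Vcan at chr13:89742463-89742762 on the minus strand (RefSeq, GRCm38.p6).
Hapln1: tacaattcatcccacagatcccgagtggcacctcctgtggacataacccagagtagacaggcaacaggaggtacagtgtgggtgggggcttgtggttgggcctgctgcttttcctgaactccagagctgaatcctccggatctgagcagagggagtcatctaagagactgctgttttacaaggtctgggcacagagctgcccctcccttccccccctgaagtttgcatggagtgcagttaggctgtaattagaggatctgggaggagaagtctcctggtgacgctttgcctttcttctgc
Vcan: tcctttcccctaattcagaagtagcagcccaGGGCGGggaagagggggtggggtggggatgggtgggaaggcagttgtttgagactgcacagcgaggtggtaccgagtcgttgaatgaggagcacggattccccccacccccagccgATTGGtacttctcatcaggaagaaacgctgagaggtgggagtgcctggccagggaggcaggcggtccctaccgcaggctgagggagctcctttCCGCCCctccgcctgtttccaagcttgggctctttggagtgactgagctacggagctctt
The Hapln1 window holds none of the 3 motifs and 3 CG pairs. The Vcan window holds 2 GC boxes, 1 CCAAT box and 12 CG pairs. The absence of a match says only that these letters are not in the window.

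Over all 21 pairs of the 7 genes, the closest was that of Bcan and Ncan, with a Pearson r of 0.79 and a Spearman rho of 0.79. Their r was 0.80 after group means were removed, 0.85 in the 6 females and 0.79 in the 6 males. It was 0.61 without the 2 libraries farthest from the Bcan median. Both genes also followed a library index of base composition, defined below, with r 0.82 for Bcan and 0.90 for Ncan. Shared regulation of the 2 genes was not tested. Hapln4 and Ptprz1 ran in opposite directions, with r at -0.75 and rho at -0.64. The r of this pair was -0.97 in the 6 males and -0.38 in the 6 females. It was -0.40 without the 2 libraries farthest from the Hapln4 median. Vcan and Ptprz1, both genes of oligodendrocyte precursors, had an r of 0.47, or 0.86 after group means were removed, 0.22 in males and 0.30 without the 2 libraries farthest from the Vcan median. Hapln1 and Hapln4, the link protein pair, had an r of 0.16.

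**Figure D3:**
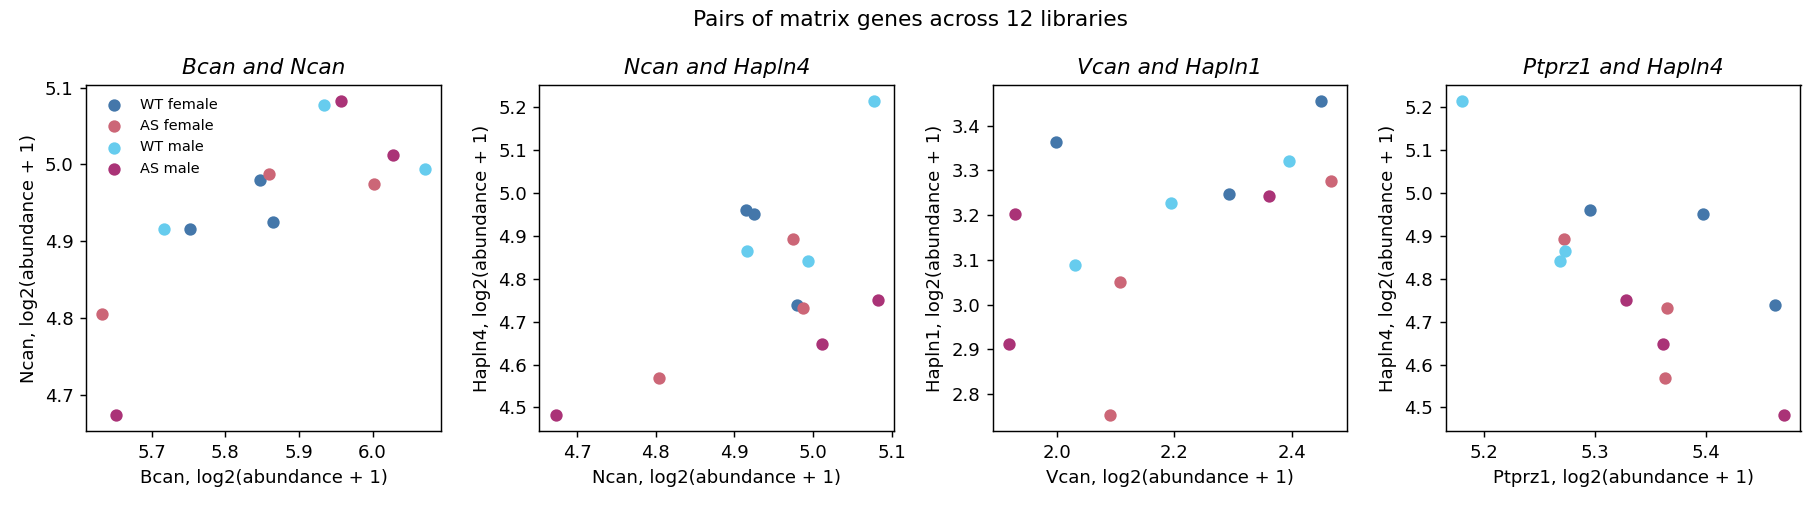
Levels of gene pairs, log2(abundance + 1), in the 12 libraries, coloured by group; each point is 1 library. Bcan and Ncan lie along a rising line (r 0.79), Ncan and Hapln4 have an r of 0.60 that is 0.37 without AS male replicate 2, Vcan and Hapln1 rise together loosely (r 0.56), and Ptprz1 and Hapln4 lie along a falling line (r -0.75).

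The genes also differ in base composition. The share of G and C in the longest coding transcript was 60.7% for Bcan, 57.0% for Hapln4 and 55.1% for Ncan. It was 47.7% for Tnr, 44.5% for Ptprz1, 43.7% for Vcan and 39.8% for Hapln1, against a median of 50.04% over the 13647 tested genes with a transcript sequence. Libraries differed along the same axis. A GC index was computed for each library as the mean log2 deviation of genes with at least 55.9% GC minus that of genes with at most 44.2%. It was -0.31 in AS male replicate 2 and between -0.079 and 0.14 in the other 11 libraries.

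Across libraries, Ncan followed this index with r 0.90 and rho 0.82, Bcan with r 0.82 and rho 0.87, and Hapln4 with r 0.57 and rho 0.45. Ptprz1 ran against it with r -0.71 and rho -0.73, Vcan with r -0.53 and rho -0.57, Tnr with r -0.31 and Hapln1 with r -0.19. Without the 2 libraries farthest from the median index, r was 0.81 for Ncan, 0.83 for Bcan, 0.35 for Hapln4 and -0.56 for Ptprz1. With the index as a covariate, Hapln4 differed by -0.27 ± 0.11 in males (adjusted p = 0.654) and -0.22 ± 0.075 over both sexes, and Hapln1 by -0.32 ± 0.14 in females. Ptprz1 differed by 0.11 ± 0.055 in males in that fit. What makes the libraries differ in GC was not tested.

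**Figure D4:**
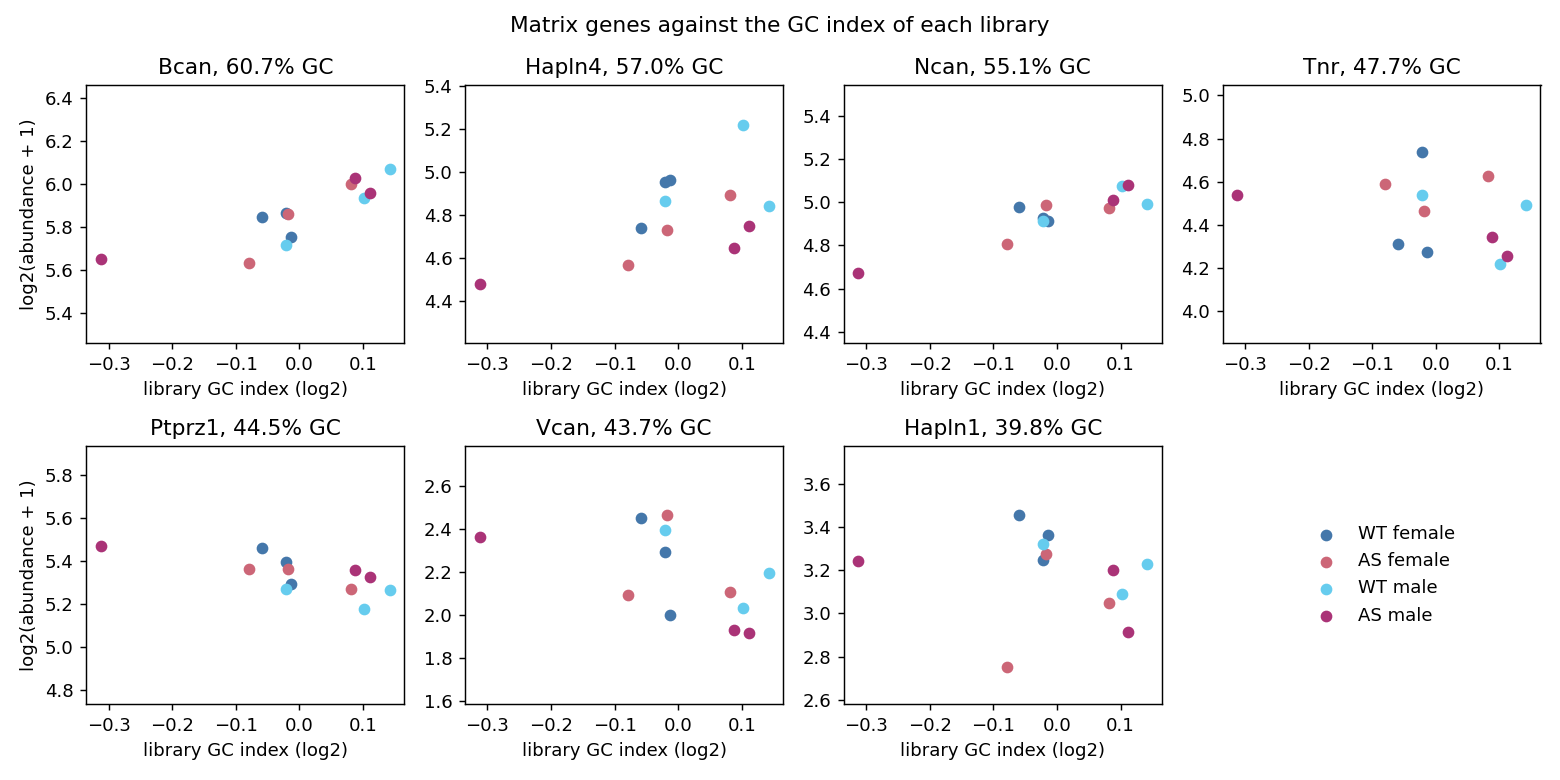
Level of each gene, log2(abundance + 1), against the GC index of each library, in order of the GC share of its transcript; points are libraries, coloured by group. The GC-rich Bcan and Ncan rise with the index (r 0.82 and 0.90), Ptprz1 declines with it (r -0.71), and AS male replicate 2 lies apart at -0.31.

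Genes whose values tracked each of the 7 closely over the 12 libraries were of many kinds. Bcan ran with Nacc2, Rhbdl1 and Insyn1 (r 0.95 to 0.96), and Ncan with Wiz, Acot7 and Ppme1 (0.95 to 0.96). Vcan ran with Serpina3h, Sema3d and Usp53 (0.87 to 0.89) and Tnr with Dock4 and Lrrc7 (0.89 to 0.92). Hapln1 was followed by Rpl10, Armcx3 and Atp6v1d (0.90 to 0.93), Hapln4 by Rad51d and Rab42 (0.91 to 0.94) and Ptprz1 by Cetn2, Dars and Ate1 (0.91 to 0.94). None of the 7 genes was among the 3 closest of another. These r are among the highest over 13858 genes and describe likeness only.

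Of the enzymes that build and trim the matrix, those tested gave no calls either. Of 21 listed genes of chondroitin sulfate synthesis and sulfation, 17 were tested and 0 passed over both sexes, with 10 above and 7 below 0 and a median difference of 0.0039. Chsy1, a chondroitin chain polymerase, was at 0.14 ± 0.089 and Xylt2, a xylosyltransferase that starts the chain, at 0.12 ± 0.099, and neither passed. Xylt2 was at 0.38 ± 0.14 in females and -0.14 ± 0.14 in males, with an interaction of -0.52 ± 0.20 (adjusted p = 0.987, limma). Of 11 names for hyaluronan genes 5 were tested and 0 passed, with a median of -0.054. The hyaluronan synthase genes Has1, Has2 and Has3 were not tested, so the 5 are genes of breakdown and receptors. Hyal1, a hyaluronidase, was at -0.18 ± 0.12 and Cemip2, a cell surface hyaluronidase, at 0.079 ± 0.070.

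Among 20 matrix proteases and inhibitors 15 were tested and 0 passed, with 7 above and 8 below 0 and a median of -0.023. Adamts5, Adamts15, Mmp3, Mmp9 and Timp1 were not tested. Adamts4, which cleaves lecticans, was at 0.26 ± 0.16 and Timp4, a metalloproteinase inhibitor, at -0.15 ± 0.076. Of 20 receptors, ligands and binding partners 19 were tested and 0 passed, with 14 above and 5 below 0 and a median of 0.017. Nptxr, a pentraxin receptor of excitatory synapses, was at 0.16 ± 0.095, and Rtn4rl1, a Nogo receptor relative that binds chondroitin sulfate, at 0.12 ± 0.075. Other brain matrix proteins gave 0 calls among 22 tested of 23 listed, with 15 below 0 and a median of -0.025. Reln, the secreted guidance protein of certain interneurons, was at -0.37 ± 0.11 and Sdc4, a heparan sulfate proteoglycan, at -0.22 ± 0.077, and neither passed (adjusted p = 0.723 and 0.893, limma).

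**Figure D5:**
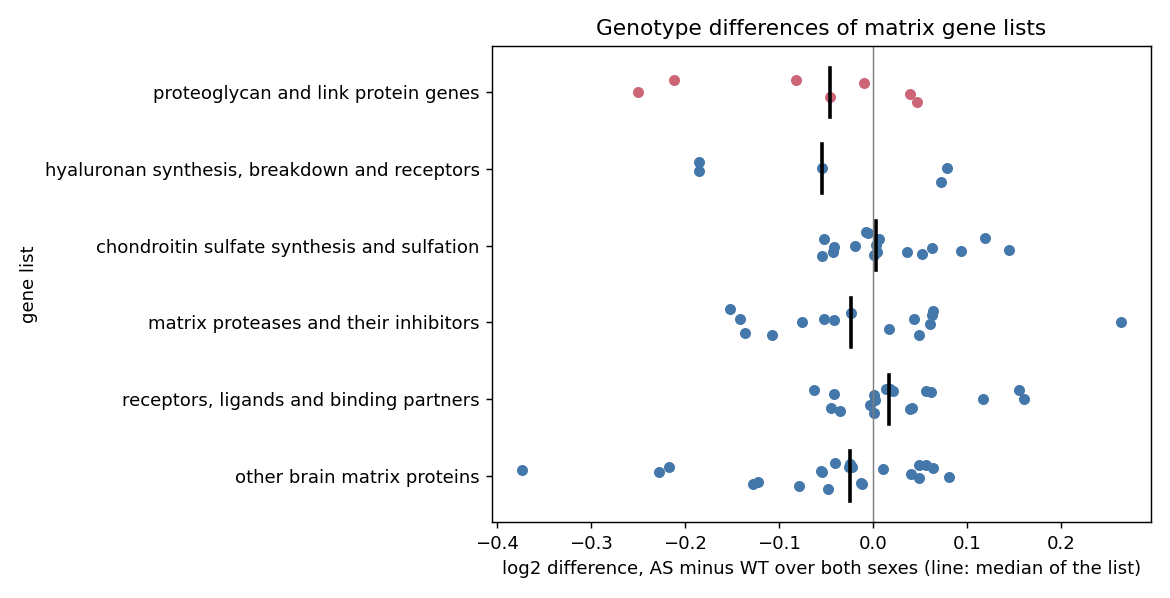
Differences in log2(abundance + 1) between AS and WT mice over both sexes for the 7 genes (red) and 5 lists of related genes (blue), 1 point per gene, with the median of each list as a black line. Medians lie between -0.054 and 0.017 and none of the genes passed.

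Cell types that make these transcripts were compared through marker lists. All 11 listed parvalbumin interneuron markers were tested, and all 11 had a difference below 0 over both sexes. Their median was -0.094 against 0.0053 over all genes, and 0 passed. The list includes Gad1 and Gad2, which are not particular to parvalbumin cells, so it does not isolate this cell type. Within a sex the direction was mixed, with 7 of 11 below 0 in females (median -0.030) and 8 of 11 in males (median -0.061). At an unadjusted p under 0.05 (limma), 0 of the 11 stood out in females, where 3.16% of all genes did. In males 3 did, against 6.42% of all genes, and over both sexes 2, against 5.35%, each lower in AS. Pvalb, the calcium buffer that names these cells, was at -0.11 ± 0.075, and Kcnc1, their fast potassium channel, at -0.14 ± 0.058. The summed abundance of this list was 335 to 388 in WT females, 326 to 338 in AS females, 345 to 378 in WT males and 327 to 355 in AS males. None of these markers was at 0. In bulk tissue, fewer cells of a type and less RNA per cell cannot be told apart, and the part of interneuron markers in the Hapln1 and Hapln4 values was not tested.

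Astrocyte markers gave 8 of 10 differences below 0 over both sexes, with a median of -0.020 and 0 calls. The sexes differed, with 8 of 10 markers below 0 in females (median -0.093) and 5 of 10 in males (median 0.011). Their summed abundance was 1494 to 1644 in WT females, 1486 to 1526 in AS females, 1546 to 1604 in WT males and 1505 to 1570 in AS males. Oligodendrocyte precursor markers gave 5 above and 3 below 0 among 8 tested, with a median of 0.010, and Pdgfra, which defines these cells, was at 0.012 ± 0.078. CA2 markers gave 4 above and 2 below 0 among 6 tested, with a median of 0.033. All 10 oligodendrocyte markers were above 0, with a median of 0.15 and 0 calls. In females 10 of 10 were above 0 (median 0.23) and in males 9 of 10 (median 0.082). Their summed abundance was 1649 to 2237 in WT females, 1629 to 2637 in AS females, 1413 to 2595 in WT males and 1658 to 1941 in AS males. The part of these cells in the values of Tnr was not tested. Excitatory neuron markers gave 4 of 6 below 0 (median -0.025) and endothelial markers 4 of 6 (median -0.050). Meningeal fibroblast markers gave 7 of 9 (median -0.072) and microglial markers 3 of 8 (median 0.016), with 0 calls in each list. These lists also differed by sex. Medians in females and males were 0.047 and -0.097 for excitatory neurons and 0.026 and -0.14 for endothelium. They were -0.30 and 0.020 for meningeal fibroblasts and 0.046 and -0.025 for microglia.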

How the data were processed

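Ventral hippocampus RNA of 12 mice was measured as 1 library each. Per the submitters' processing notes, reads went through Trimmomatic, Bowtie2 and RSEM on GRCm38 (mm10), with no versions given. The deposited values are read as the natural log of abundance + 1. Whether abundance is TPM or FPKM, the log base, the constant and the normalization are not stated. Values of 0.100 to 10.08 back-transform to library totals of 547558 to 587587 in base e and 121858 to 124206 in base 2. Base 2 would shrink each log2 difference to 0.693 of the printed size. Columns share nearly all values in the middle of the range, as after quantile normalization, but few at the ends. Of values from 2 to 5 sampled in 1 column, 100% occurred in all columns. The share was 16.0% for values under 1, 15.9% from 5 to 6 and 0.0% from 6 to 20. The values hold no counts, so depth and counting error are unknown.

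Values were divided by the natural log of 2. Genes with mean abundance under 1 were left out (93). limma 3.58.1 in R 4.3.3 fitted 4 group means to all 12 libraries with moderated, trended variances (8 residual degrees of freedom). The fit was run on simulated data with independent noise per gene. Such data hold no differences shared by whole libraries, so that check does not cover them. Calls used a Benjamini-Hochberg adjusted p under 0.05 over 13858 genes. Symbols matched 13735 of 13951 identifiers. Replicate numbers follow accession order. The 7 genes, the lists and the tests were chosen with earlier results of these data known. Named genes are the 7, the 2 genes per pathway list with the smallest p over both sexes, and the 3 most alike to each by Pearson r, not all of which are reported here. Markers beside results follow their lists. Promoter windows came from a prepared set of RefSeq starts, and that set held 6 of the 7 genes, without Hapln4. The protein sequences were not used here.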

Additional observations from a re-analysis of the deposited data

How the results depend on the processing

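With 0 of the 7 genes called, each of 23 alternatives kept that count at 0 in all 6 comparisons, and the lowest adjusted p of any member was 0.482. Of 960 differences recomputed, 880 kept their direction and 80 changed sign, none of them called. The cause of these changes of sign was not tested. Where the 4 libraries highest in choroid plexus markers were left out, values that involve WT females rest on 1 WT female library. With library quality weights, AS minus WT in females gave Ncan 0.0074 and Vcan 0.044, while AS minus WT in males gave Bcan 0.051 and Ncan 0.022. In that fit, AS minus WT over both sexes gave Bcan 0.042, Ncan 0.014 and Tnr -0.016, while the interaction gave Bcan 0.018 and Ncan 0.014. There also, male minus female in AS gave Hapln1 -0.0028. With quantile normalization applied again, male minus female in AS gave Ncan -0.00076. With choroid plexus level in the model, AS minus WT in females gave Bcan -0.065, while AS minus WT in males gave Bcan 0.0018. In that fit, the interaction gave Bcan 0.066 and Ncan 0.031, while male minus female in WT gave Bcan -0.079, Ncan -0.081 and Tnr 0.056. There also, male minus female in AS gave Bcan -0.013 and Ncan -0.050. Without the 4 libraries highest in choroid plexus markers, AS minus WT in females gave Ncan 0.0018 and Hapln4 0.073, while AS minus WT in males gave Bcan 0.085 and Ncan 0.052. In that fit, AS minus WT over both sexes gave Bcan 0.084, Ncan 0.027 and Ptprz1 -0.020, while the interaction gave Bcan 0.0026 and Ncan 0.050. There also, male minus female in WT gave Tnr 0.11, while male minus female in AS gave Hapln1 -0.11. With the GC index as a covariate, chosen after seeing the data, AS minus WT in females gave Bcan -0.018 and Vcan 0.0033, while AS minus WT in males gave Bcan 0.089 and Ncan 0.024. In that fit, AS minus WT over both sexes gave Bcan 0.036, while the interaction gave Bcan 0.11 and Ncan 0.065. There also, male minus female in WT gave Bcan -0.026, Ncan -0.036, Vcan 0.075 and Tnr 0.028.

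Leaving out 1 library at a time changed the sign of 38 values. Ranges for AS minus WT in females were Bcan -0.076 to 0.11, Ncan -0.050 to 0.041, Vcan -0.15 to 0.076. Ranges for AS minus WT in males were Bcan -0.12 to 0.085, Hapln1 -0.16 to 0.0092, Ncan -0.15 to 0.052, Tnr -0.14 to 0.024. Ranges for AS minus WT over both sexes were Bcan -0.057 to 0.047, Ncan -0.085 to 0.017, Tnr -0.0091 to 0.11. Ranges for the interaction were Bcan -0.14 to 0.076, Ncan -0.14 to 0.070, Vcan -0.26 to 0.012. Ranges for male minus female in WT were Hapln4 -0.031 to 0.16, Tnr -0.11 to 0.12, Vcan -0.16 to 0.061. Ranges for male minus female in AS were Bcan -0.051 to 0.16, Hapln1 -0.044 to 0.22, Ncan -0.080 to 0.13.

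Counts of called genes over the whole table moved as follows, none of them members. AS minus WT went from 0 to 5 in females, 1 in males and 2 over both sexes without the 4 libraries highest in choroid plexus markers, the interaction to 2 and male minus female in WT from 4 to 7; 1 WT female library remained there and is assumed to vary like the other groups. With the stricter filter of 5, which left Vcan without a value, male minus female gave 2 in WT and 3 in AS, where the count was 5. It gave 2 in AS with a constant of 0.1 and 3 with only the groups compared fitted. On leaving out 1 library, counts ran from 0 to 1 for AS minus WT in females, 0 to 1 for AS minus WT in males, 0 to 2 for AS minus WT over both sexes, 0 to 1 for the interaction, 2 to 8 for male minus female in AS, 4 to 8 for male minus female in WT. Both counts of 8 came without WT female replicate 1 and the 2 over both sexes without WT male replicate 2. No paired analysis was possible because the labels give no replicate number within a group, and the numbers here only name libraries. Depth is unknown, so no counting limit can be given.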
